A study of Mus musculus with 12 samples.

Results

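Genes of the major histocompatibility complex (MHC) and of antigen presentation were followed in fat of obese mice. They were chosen by symbol: every gene whose symbol starts with H2-, the prefix of the mouse MHC, together with Cd74, Ciita, B2m, Tap1, Tap2, Tapbp, Cd1d1, Cd80, Cd86, Psmb8, Psmb9 and Psmb10. This gave 52 of the 21651 genes on the array, 30 of class I, 11 of class II, 9 of peptide supply, lipid presentation and costimulation, and 2 neighbours of the complex that only carry its prefix. The samples were white fat (white adipose tissue, WAT) and brown fat (brown adipose tissue, BAT) of male C57 mice aged 4 months on a chow diet. All were ob/ob, a genotype that lacks the hormone leptin, and the second genotype, called triple mutant here, was ob/ob/Cidea-/-/Cidec-/-, which also lacks Cidea and Cidec, proteins of the lipid droplet surface that help droplets fuse and grow. These deletions are labelled as whole-animal genotypes, so no single cell type of the fat is marked out by them. There were thus 4 groups of 3 arrays, numbered 1 to 3 by their titles. The labels do not say whether the 3 samples in each group were taken from different mice, so every p-value reflects the spread between samples that may be only technical.

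MHC class I molecules show peptides cut by the proteasome inside the cell to cytotoxic T cells and are made by nearly all nucleated cells. Each consists of a heavy chain, such as those of H2-D1 and H2-K1, and beta-2 microglobulin, the product of B2m. It is loaded in the endoplasmic reticulum with peptides that the TAP pump brings in, with tapasin (Tapbp) holding the empty molecule. MHC class II molecules show peptides of engulfed proteins to helper T cells and are made mainly by macrophages, dendritic cells and B cells, with Ciita as the master switch of their transcription. In obese fat, class II molecules on macrophages and other cells are known to take part in the activation of T cells.

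The promoters of 6 strongly measured class I and class II chains are shown, out of those with an entry in the RefSeq promoter table (H2-Ab1 has none). Class I and class II genes are known to share some short control elements there and to differ in others. Each line gives the 180 bases before the annotated start of the gene, 5' to 3' in the direction of the gene, from RefSeq on GRCm38.p6. Capitals mark matches to 4 short motifs on either strand. The first is ATTGG, the core of the Y box. The second is TGACG, part of the X2 box and of cAMP response elements. The third is GGGATTCCC, the core of the kappa B element of class I genes. The fourth is AANNGAAA, the core bound by interferon regulatory factors, and N is any base.
H2-Aa, an alpha chain of class II, chr17:34287824-34288003, minus strand: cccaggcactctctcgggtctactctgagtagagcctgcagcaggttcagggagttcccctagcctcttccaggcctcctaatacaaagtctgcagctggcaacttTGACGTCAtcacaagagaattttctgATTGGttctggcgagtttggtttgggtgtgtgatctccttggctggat
H2-Eb1, a beta chain of class II, chr17:34305687-34305866, plus strand: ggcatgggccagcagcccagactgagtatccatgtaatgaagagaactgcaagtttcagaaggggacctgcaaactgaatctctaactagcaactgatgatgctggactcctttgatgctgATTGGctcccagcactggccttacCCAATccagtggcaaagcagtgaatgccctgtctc
H2-D1, a heavy chain of class I, chr17:35262914-35263093, plus strand: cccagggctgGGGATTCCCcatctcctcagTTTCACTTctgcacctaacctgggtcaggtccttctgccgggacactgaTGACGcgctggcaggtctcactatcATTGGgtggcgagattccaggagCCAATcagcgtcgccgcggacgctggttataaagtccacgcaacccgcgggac
H2-K1, a heavy chain of class I, chr17:34000348-34000527, minus strand: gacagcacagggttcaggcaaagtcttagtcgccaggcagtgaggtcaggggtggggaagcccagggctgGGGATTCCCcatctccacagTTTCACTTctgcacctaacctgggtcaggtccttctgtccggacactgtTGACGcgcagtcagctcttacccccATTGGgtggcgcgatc
H2-Q7, a nonclassical heavy chain of class I, chr17:35438975-35439154, plus strand: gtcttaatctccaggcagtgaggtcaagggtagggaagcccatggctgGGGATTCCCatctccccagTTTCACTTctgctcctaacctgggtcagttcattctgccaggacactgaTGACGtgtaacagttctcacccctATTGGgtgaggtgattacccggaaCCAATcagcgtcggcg
B2m, the light chain of class I, chr2:122147507-122147686, plus strand: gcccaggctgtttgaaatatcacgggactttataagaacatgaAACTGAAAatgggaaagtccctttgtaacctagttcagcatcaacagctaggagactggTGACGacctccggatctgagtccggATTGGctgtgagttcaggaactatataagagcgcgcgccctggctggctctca
In H2-Aa the TGACG matches of the 2 strands overlap, as TGACGTCA. Over the 250 bases before the start, ATTGG was found on either strand in 37.5% of 27025 genes, in 21 of the 24 class I genes with a promoter in the RefSeq table (87.5%) and in 7 of the 7 class II genes. TGACG was found in 19.8% of all genes, in 12 of 24 class I genes and in 1 of 7 class II genes. GGGATTCCC was found in 0.352% of all genes and in 4 of 24 class I genes, which were H2-D1, H2-K1, H2-Q6 and H2-Q7, and in 0 of 7 of class II. AANNGAAA was found in 23.9% of all genes, in 16 of 24 class I genes and in 3 of 7 class II genes. In H2-D1, H2-K1, H2-Q7 and B2m it stands on the upstream side of TGACG, followed by ATTGG. Near-identical copies account for part of these counts, and a match shows only that the letters are present. A missing match to an exact motif, such as TGACG in class II genes, does not show that the element is absent.

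Signals are log2 values normalized by RMA (robust multi-array average). The highest of 45 antigenomic control probe sets, which match no mouse gene, lay between 7.40 and 8.13 over the 12 arrays, and 20 of the 52 genes had a mean above the average of it in their higher group. For a group below this control a log2 change is no fold estimate. Ucp1, the uncoupling protein of brown fat, was at 11.47 to 12.62 in BAT, at 4.91 to 6.21 in ob/ob WAT and at 6.94 to 10.36 in triple mutant WAT. Adipoq, the adipocyte hormone adiponectin, was at 10.23 to 12.22 over all arrays. The signal of Cidea was 8.42 to 10.03 in triple mutant WAT and 4.86 to 5.56 in ob/ob WAT, and that of Cidec was 10.59 to 11.87 over all groups. The labels do not place the probes with respect to the deletions, so these signals check neither the labels nor the loss. Genes are called risen or fallen where the two-sided limma test gave a Benjamini-Hochberg adjusted p, over all genes, under 0.05. By this rule 34.3% of all genes were called between genotypes in WAT and 17.4% in BAT, and 37.2% and 14.4% between tissues in ob/ob and triple mutants. The arrays of both groups did not overlap for 46.6% and 35.5% of all genes between genotypes and for 52.2% and 32.7% between tissues, so a lack of overlap alone is common here.

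The class II genes that passed the test in WAT were lower in triple mutants than in ob/ob. Of the 11, 4 fell and 0 rose, against 16.7% of all genes that fell and 17.6% that rose in the same comparison. Their median change was -0.68 (log2), against 0.04 over all genes tested. The genes that fell were Cd74, H2-Eb1, H2-DMa and Ciita. Without array 1 of triple mutant WAT or array 2 of ob/ob BAT, 7 were called.

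Cd74 encodes the invariant chain, which fills the groove of new class II molecules and steers them to the endosome. Its signal was 10.81, 11.02 and 11.18 in ob/ob WAT and 10.14, 9.97 and 9.46 in triple mutant WAT. All triple mutant arrays lay below all ob/ob arrays. The change was -1.15 ± 0.17 (standard error, n = 3 against 3), or 2.21-fold lower, with an adjusted p of 0.000274 (limma).

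H2-Eb1 encodes the beta chain of the I-E molecule. The gene listed for the alpha chain, H2-Ea-ps, carries a pseudogene symbol and stayed below the highest control. Whether these mice assemble I-E was not tested, so the values of H2-Eb1 are read as RNA only. In ob/ob WAT H2-Eb1 was at 10.15, 10.35 and 10.82, and in triple mutant WAT at 9.67, 9.49 and 9.10. These groups were also fully apart. The change was -1.02 ± 0.17, or 2.03-fold lower, with an adjusted p of 0.000642.

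H2-Aa and H2-Ab1 encode the alpha and the beta chain of I-A, a class II molecule of the mouse. On NCBIM37, the build of the array annotation, their probe sets span chr17:34419689-34424745 and chr17:34400185-34406355, beside that of H2-Eb1 at chr17:34442812-34453619. H2-Aa was at 10.27, 10.69 and 11.06 in ob/ob WAT and at 10.41, 10.01 and 9.62 in triple mutant WAT. Triple mutant array 1 reached into the ob/ob range. The difference was -0.66 ± 0.25 with an adjusted p of 0.063, and without array 1 of triple mutant WAT it was -0.86 with an adjusted p of 0.0288. The adjusted p of H2-Aa was also lower without array 1 of ob/ob WAT (0.0286) or array 2 of ob/ob BAT (0.0414). H2-Ab1 was at 10.48, 10.64 and 10.92 in ob/ob WAT and at 10.32, 10.06 and 9.58 in triple mutant WAT. Its groups were apart by a small gap, and the difference was -0.70 ± 0.27 with an adjusted p of 0.0659. Without array 2 of ob/ob BAT, which enters only through the shared estimate of spread, the adjusted p of H2-Ab1 was 0.0126. It was 0.0476 without array 1 of triple mutant WAT, 0.0393 without array 1 of ob/ob BAT and 0.0315 with the 6 WAT arrays alone.

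H2-DMa and H2-DMb2 encode chains of H2-DM, which removes the invariant chain remnant from class II molecules and edits their peptides. H2-DMa was at 8.03, 7.85 and 8.26 in ob/ob WAT and fell to 7.67, 7.23 and 6.73 in triple mutant WAT, a change of -0.83 ± 0.22 with an adjusted p of 0.0114. H2-DMb2 was at 7.81, 8.11 and 8.0 in ob/ob WAT and at 7.74, 7.44 and 6.63 in triple mutant WAT, a difference of -0.70 ± 0.26 with an adjusted p of 0.0578. For H2-DMb2 that p was 0.0191 without array 1 of triple mutant WAT and 0.039 and 0.0404 without array 1 and array 2 of ob/ob BAT. Neither pair of groups overlapped, and triple mutant means lay below the highest control for both genes.

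Ciita stayed below the highest control on every array and is named for its role. It was at 6.35, 6.17 and 6.83 in ob/ob WAT and at 5.89, 5.75 and 5.66 in triple mutant WAT. The groups did not overlap, the change was -0.68 ± 0.20 and the adjusted p was 0.019. The call was lost when 1 of 3 arrays was left out, namely ob/ob WAT 3 (adjusted p = 0.0765), triple mutant WAT 2 (0.0516) or triple mutant WAT 3 (0.0591). The other 4 class II genes, H2-Ea-ps, H2-Eb2, H2-Oa and H2-Ob, stayed below the highest control and were not called in any comparison. H2-Oa and H2-Ob encode the chains of H2-DO, an inhibitor of H2-DM found mainly in B cells.

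Within triple mutant WAT, array 1 was the highest of its group for all 6 class II genes above the control and array 3 the lowest for all 6. In ob/ob WAT, array 3 was the highest for 5 of the 6 and array 1 the lowest for 5. The ranks of the arrays inside the groups were thus alike for most of these genes, of which 3 were called between the groups.

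**Figure D1:**
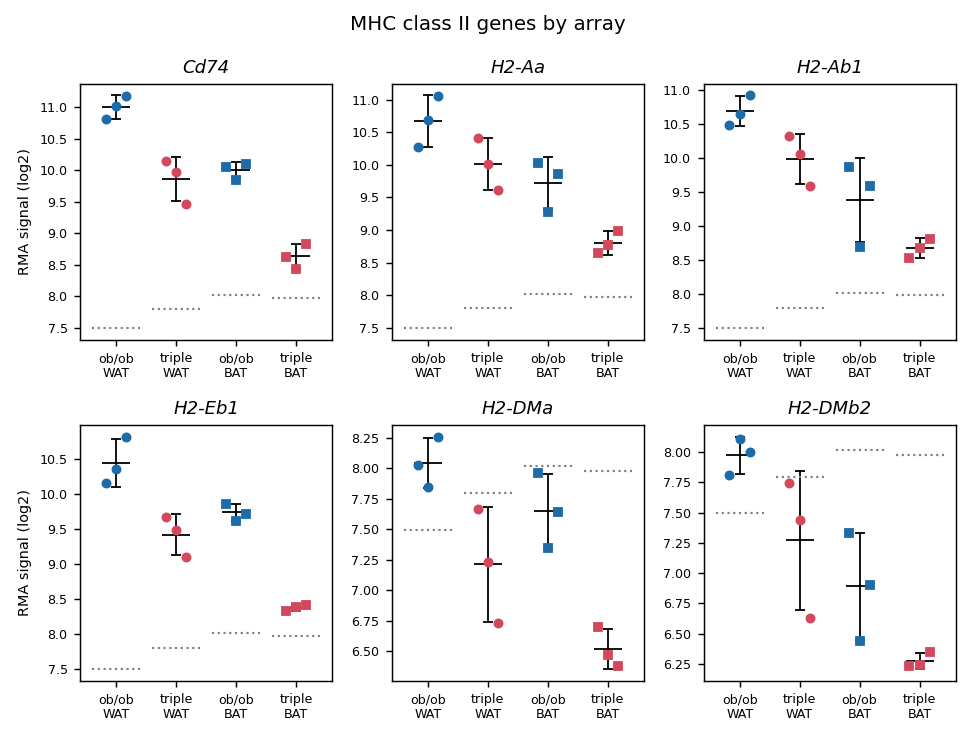
RMA signal (log2) of the 6 class II genes above the highest control in each array. Circles are WAT and squares BAT, blue ob/ob and red triple mutant, the black bars give the mean ± SD of 3 arrays and the dotted lines the highest antigenomic control averaged over the group. Cd74 and H2-Eb1 are lower in the triple mutants in both tissues with no overlap, and array 2 of ob/ob BAT is the lowest of its group in all 6 panels.

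In BAT the class II genes that passed the test were again lower in the triple mutants. Of the 11, 4 fell and 0 rose, against 6.97% of all genes that fell and 10.4% that rose. Their median change was -0.62, against -0.03 over all genes. The genes that fell were Cd74, H2-Eb1, H2-DMa and H2-Aa.

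Cd74 was at 10.05, 9.85 and 10.10 in ob/ob BAT and at 8.63, 8.44 and 8.83 in triple mutant BAT. The groups lay wide apart, with a change of -1.37 ± 0.17, or 2.58-fold lower, and an adjusted p of 0.00065. H2-Eb1 was at 9.86, 9.62 and 9.72 in ob/ob BAT and at 8.33, 8.38 and 8.41 in triple mutant BAT. Both groups were tight and did not overlap. The change was -1.36 ± 0.17, or 2.57-fold lower, with an adjusted p of 0.000704.

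H2-Aa was at 10.03, 9.27 and 9.86 in ob/ob BAT and at 8.64, 8.77 and 8.99 in triple mutant BAT. The groups did not overlap, the change was -0.92 ± 0.25 and the adjusted p was 0.0264. This call was lost without array 1 of ob/ob BAT (adjusted p = 0.0916) or array 3 (0.0832) and without array 1 of triple mutant BAT (0.0831) or array 2 (0.072). H2-Ab1 was at 9.87, 8.69 and 9.58 in ob/ob BAT and at 8.52, 8.68 and 8.81 in triple mutant BAT. Here ob/ob array 2 fell inside the triple mutant range. The difference was -0.71 ± 0.27 with an adjusted p of 0.093, and without that array it was -1.06 with an adjusted p of 0.00744.

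H2-DMa was at 7.96, 7.35 and 7.64 in ob/ob BAT and at 6.70, 6.48 and 6.38 in triple mutant BAT, all below the highest control. It fell by 1.13 ± 0.22 on the log2 scale with an adjusted p of 0.00576. H2-DMb2 had a difference of -0.62 ± 0.26 (adjusted p = 0.134), and Ciita one of -0.52 ± 0.20 (0.0954). H2-DMb2 was called without array 3 of triple mutant WAT (0.0444) and Ciita without array 2 of ob/ob BAT (-0.70, 0.0372). Without array 2 of ob/ob BAT, 6 class II genes were called in BAT. For none of the 11 did the change differ between the tissues by the test of that difference (limma, lowest adjusted p 0.351), against 13.9% of all genes.

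Class II genes that differed between the tissues were lower in BAT, in both genotypes. In ob/ob, 6 of the 11 genes were lower in BAT and 0 higher, against 19.0% of all genes lower and 18.2% higher. The largest difference was that of H2-Ab1, at -1.30 ± 0.27 (adjusted p = 0.00292), followed by H2-DMb2 at -1.08 ± 0.26 (0.00721), Cd74 at -1.01 ± 0.17 (0.00082) and H2-Aa at -0.95 ± 0.25 (0.0115). H2-Eb1 differed by -0.71 ± 0.17 (0.00744), Ciita by -0.63 ± 0.20 (0.0269), and H2-DMa by -0.40 ± 0.22 (0.176), which was not called. The call of Ciita was lost without array 3 of ob/ob WAT (adjusted p = 0.1) or array 2 of ob/ob BAT (0.095) and with the 6 ob/ob arrays alone (0.0553). In triple mutants 5 of 11 were lower in BAT and 0 higher, against 7.93% and 6.45% of all genes. These were H2-Ab1 at -1.31 ± 0.27 (adjusted p = 0.00744), Cd74 at -1.22 ± 0.17 (0.000833), H2-Aa at -1.22 ± 0.25 (0.00778), H2-Eb1 at -1.05 ± 0.17 (0.00215) and H2-DMb2 at -1.0 ± 0.26 (0.026). The call of H2-DMb2 was lost without array 1 of triple mutant WAT (difference -0.76, adjusted p = 0.108) or array 2 (adjusted p = 0.0971) and without arrays 1, 2 or 3 of triple mutant BAT (0.0728, 0.0735 and 0.0606). With the array number as a block, which pairs WAT and BAT of the same genotype, H2-DMa was also called lower in triple mutant BAT (-0.69, adjusted p = 0.0184, against 0.0572 without the block). The same gene was called without array 3 of triple mutant WAT (-0.93, 0.00761) or array 1 of ob/ob BAT (0.0451). The tissue comparisons use the same arrays as the genotype comparisons, and the main model did not pair WAT with BAT.

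Markers of the cells that carry class II were read in the same comparisons. The shares of all genes were 16.7% fallen and 17.6% risen in WAT, and 6.97% and 10.4% in BAT. Between the tissues, 19.0% of all genes were lower and 18.2% higher in BAT in ob/ob, and 7.93% and 6.45% in triple mutants. Of 5 genes of all leukocytes 5 fell and 0 rose in WAT, with a median of -2.87, and 5 fell in BAT, with a median of -1.41. Of the 10 macrophage markers measured, of 11 listed, 9 fell in WAT (median -2.05) and 8 in BAT (median -1.35), and 0 rose in either. The mean signal of the macrophage markers was 9.86 to 9.93 over the arrays of ob/ob WAT, 7.75 to 7.79 in triple mutant WAT, 8.15 to 8.91 in ob/ob BAT and 7.06 to 7.21 in triple mutant BAT. Between the tissues, 5 of the 5 leukocyte genes (median -1.75) and 8 of the 10 macrophage markers (median -1.50) were lower in BAT in ob/ob. In triple mutants 0 of the 5 leukocyte genes were called (median -0.76, lowest adjusted p 0.0737) and 3 of the 10 macrophage markers were lower in BAT (median -0.60). Csf1r, the receptor for macrophage growth factor, fell by 2.08 ± 0.16 in WAT (adjusted p = 5.25e-06), and Mrc1, the mannose receptor, by 1.78 ± 0.11 (1.53e-06). Of 11 dendritic cell markers 5 fell and 1 rose in WAT, with a median of -0.35. The 2 with the smallest p were Itgax at -4.60 ± 0.39 (adjusted p = 7.1e-06) and Clec10a at -1.67 ± 0.32 (0.00153). In BAT 1 of the 11 fell and 0 rose, with a median of -0.33, and 2 of the 11 lay above the highest control in any group. The mean of the dendritic markers was 6.39 to 6.52 in ob/ob WAT, 5.62 to 5.85 in triple mutant WAT, 5.70 to 6.16 in ob/ob BAT and 5.40 to 5.43 in triple mutant BAT. In ob/ob, 4 of the 11 were lower and 1 higher in BAT than in WAT (median -0.12). In triple mutants 3 were lower and 0 higher (median -0.26). Of 12 B cell and lymph node genes 1 lay above the highest control in any group, and their mean was 4.88 to 5.05 in WAT and 4.51 to 4.72 in BAT. In WAT 2 of these fell and 1 rose, and in BAT 0 were called. Of the same 12, 4 were lower in BAT than in WAT in ob/ob (median -0.08) and 3 in triple mutants (median -0.11), with 0 higher in either. Of 11 T and natural killer cell genes 4 fell in WAT and 0 were called in BAT, and 0 lay above the control. The part of these cells in the class II difference was not tested, and in bulk tissue fewer cells of a type and less RNA per cell cannot be told apart.

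The values of the leading class II genes and leukocyte markers stand side by side as follows. In WAT, Cd74 was at -1.15 and H2-Eb1 at -1.02, where Laptm5, a lysosomal protein of leukocytes, was at -2.87 ± 0.27 (adjusted p = 1.3e-05) and Cd53, a leukocyte surface tetraspanin, at -3.30 ± 0.31 (1.32e-05). In BAT, Cd74 was at -1.37 and H2-Eb1 at -1.36, where Laptm5 was at -1.92 (0.00119) and Cd53 at -1.96 (0.00229). Whether the class II genes differ from these markers in the size of change was not tested. The mean leukocyte signal was 10.06 to 10.64 over the arrays of ob/ob WAT, 7.61 to 7.78 in triple mutant WAT, 7.94 to 9.32 in ob/ob BAT and 6.72 to 7.23 in triple mutant BAT.

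The genes that act with class II were followed as a list of 17, of which 15 were measured. In WAT 9 fell and 2 rose, with a median of -0.66, against 16.7% and 17.6% of all genes. In BAT 3 fell and 2 rose, with a median of -0.05, against 6.97% and 10.4%. Ifi30, the lysosomal thiol reductase that unfolds antigens, fell by 2.78 ± 0.22 in WAT (adjusted p = 5.64e-06) and by 1.61 ± 0.22 in BAT (0.0011). Cd83, which holds class II and CD86 at the surface of dendritic cells, fell by 2.30 ± 0.16 in WAT (2.75e-06) and had a difference of -0.49 ± 0.16 in BAT (0.0579).

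Class I genes did not move as one group. Of the 30, 8 fell and 1 rose in triple mutant WAT, against the same 16.7% and 17.6% of all genes, and their median change was -0.09. The 10 above the highest control were B2m, H2-D1, H2-K1, H2-Q6, H2-Q7, H2-Q8, H2-T22, H2-T23, H2-gs10 and H2-t9. Of these 10, 5 fell and 1 rose in WAT, with a median change of -0.33. A gene entered the 10 through its highest group. The highest control was lowest in ob/ob WAT, so this choice favours genes that are high there. Many H2- genes are near-identical copies, and the probes of one may read others. The heavy chain genes H2-T22, H2-T23, H2-t9, H2-T10 and H2-Bl have probe sets that each overlap the span of at least 1 other of them, as do H2-Q8 and H2-gs10, and their values are therefore uncertain as values of single genes. Class I is also made by the fat and vessel cells, whose markers moved too. Of 8 adipocyte markers 5 rose and 0 fell in WAT (median 0.33), of 8 brown adipocyte markers 6 rose and 0 fell (median 3.17), and of 6 endothelial markers 4 rose and 0 fell (median 0.53). In BAT 1 of each list rose, with 1 fallen among the adipocyte and 1 among the endothelial markers. There 10.4% of all genes rose and 6.97% fell. The part of these cells in the class I values was not tested.

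B2m was at 12.44, 12.57 and 12.51 in ob/ob WAT, at 12.43, 12.51 and 12.35 in triple mutant WAT, at 12.28, 12.41 and 12.21 in ob/ob BAT and at 12.30, 12.26 and 12.16 in triple mutant BAT. The genotypes overlapped in both tissues. The difference was -0.08 ± 0.08 in WAT (adjusted p = 0.513) and -0.06 ± 0.08 in BAT (0.67), which leaves small changes undetected at this number of arrays. Between the tissues of ob/ob, B2m had a difference of -0.21 ± 0.08 (0.068), which was called with the array number as a random block (0.0363) and without array 2 of ob/ob BAT (-0.26, 0.0406).

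H2-D1, a classical heavy chain with a probe set at chr17:35400050-35404298 (NCBIM37), was at 11.54, 11.42 and 11.41 in ob/ob WAT and at 10.78, 10.85 and 10.69 in triple mutant WAT. The groups were clearly apart, with a change of -0.68 ± 0.10, or 1.61-fold lower, and an adjusted p of 0.000306. In BAT it was at 10.96, 11.24 and 10.83 in ob/ob and at 10.58, 10.60 and 10.57 in triple mutants. Again no array overlapped, and H2-D1 fell by 0.43 ± 0.10 with an adjusted p of 0.0155, which was 0.054 when the 6 BAT arrays were fitted alone.

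H2-K1, the other classical heavy chain, was at 10.54, 10.60 and 10.52 in ob/ob WAT and at 10.22, 10.45 and 10.13 in triple mutant WAT, and its change was -0.29 ± 0.09 with an adjusted p of 0.0236. In BAT the order was the opposite, with 10.14, 10.02 and 10.07 in ob/ob and 10.26, 10.24 and 10.22 in triple mutants. That BAT difference, 0.17 ± 0.09, was not called (adjusted p = 0.23). The change in WAT minus that in BAT was -0.45 ± 0.12 with an adjusted p of 0.0338. The WAT call was lost without array 1 of ob/ob WAT (adjusted p = 0.0565) or array 2 (0.0787), without array 1 of triple mutant WAT (0.0749) or array 3 (0.0856), and with the 6 WAT arrays alone (0.0711). The difference between tissues was lost under quantile normalization within each tissue (-0.33, adjusted p = 0.0978) and without any 1 of 9 arrays, ob/ob WAT 1 and 2, triple mutant WAT 1 and 3, ob/ob BAT 2 and 3, and triple mutant BAT 1, 2 and 3, with adjusted p between 0.054 and 0.08.

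The nonclassical heavy chain H2-Q7, which encodes a Qa-2 molecule, was at 11.39, 11.29 and 11.27 in ob/ob WAT and at 11.01, 10.97 and 10.87 in triple mutant WAT. With no overlap, H2-Q7 fell by 0.37 ± 0.08 (adjusted p = 0.00432). In BAT it was at 11.08, 11.08 and 10.87 against 10.80, 10.78 and 10.77, a difference of -0.23 ± 0.08 that was not called (0.0801). Its adjusted p in BAT was 0.0408 without array 3 of ob/ob BAT.

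The probe set labelled H2-gs10 holds transcripts that RefSeq gives to H2-Q4. It was at 8.72, 8.47 and 8.25 in ob/ob WAT and at 7.54, 7.58 and 7.24 in triple mutant WAT, a change of -1.03 ± 0.14 with an adjusted p of 0.000123. In BAT it was at 7.44, 7.33 and 7.48 in ob/ob and at 7.42, 7.35 and 7.10 in triple mutants, with a difference of -0.13 ± 0.14 (adjusted p = 0.574). Signal above the control was thus found in ob/ob WAT alone of the 4 groups. The change in WAT minus that in BAT was -0.90 ± 0.19 with an adjusted p of 0.012, and this call held under every alternative tried, including each array left out.

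H2-t9, whose probe set holds transcripts that RefSeq gives to Gm7030, fell in both tissues. It was at 8.43, 8.37 and 8.25 in ob/ob WAT and at 7.88, 7.96 and 7.79 in triple mutant WAT, and at 8.25, 8.22 and 8.17 in ob/ob BAT and at 7.77, 7.83 and 7.82 in triple mutant BAT. Neither tissue had an overlap, with changes of -0.47 ± 0.08 (adjusted p = 0.000557) and -0.40 ± 0.08 (0.00542). A second probe set of the gene had -0.13 in WAT and -0.45 in BAT, with adjusted p of 0.549 and 0.0583 over all probe sets.

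H2-T22, known as a ligand of some gamma delta T cells, was the class I gene above the control that rose. It was at 8.45, 8.20 and 8.24 in ob/ob WAT and at 8.71, 8.75 and 8.94 in triple mutant WAT, and at 8.63, 8.0 and 8.65 in ob/ob BAT and at 8.96, 8.97 and 8.90 in triple mutant BAT. The groups did not overlap in either tissue, and the changes were 0.51 ± 0.15 (adjusted p = 0.0235) and 0.52 ± 0.15 (0.0392). Both calls were fragile. The WAT call was lost without array 2 of ob/ob WAT (adjusted p = 0.0802) or array 3 (0.0658) or array 3 of triple mutant WAT (0.0809). The BAT call of H2-T22 was lost in 10 alternatives, among them arrays 1, 2 or 3 of triple mutant BAT left out (adjusted p = 0.0932, 0.101 and 0.0824), and without array 2 of ob/ob BAT the change was 0.30 (0.0672). It was also lost, with the change itself unmoved, without array 2 of ob/ob WAT (0.0527) or array 1 of triple mutant WAT (0.0515) or array 2 (0.0543). H2-T10, which overlaps it on the genome and lay below the control, fell by 0.74 ± 0.19 in WAT (adjusted p = 0.00947) and by 0.89 ± 0.19 in BAT (0.00907).

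H2-T23, which encodes Qa-1, the ligand of an inhibitory receptor of natural killer cells, was at 8.11, 8.07 and 7.66 in ob/ob WAT and at 7.62, 7.62 and 7.44 in triple mutant WAT. The groups were just apart, and the difference of -0.39 ± 0.14 was not called (adjusted p = 0.0519). Without array 3 of ob/ob WAT it was -0.53 (0.00999), and without array 1 of ob/ob BAT its p was 0.0318. H2-Q6 was at 8.21 to 8.49 in ob/ob WAT, 8.32 to 8.96 in triple mutant WAT, 7.52 to 8.39 in ob/ob BAT and 8.16 to 8.56 in triple mutant BAT, and was called in no comparison. H2-Q8 was called in neither genotype comparison, with differences of 0.18 ± 0.10 in WAT (0.236) and 0.32 ± 0.10 in BAT (0.0553). The adjusted p of H2-Q8 in BAT was 0.0359 without array 1 of ob/ob WAT and 0.0412 without array 3 of triple mutant WAT.

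**Figure D2:**
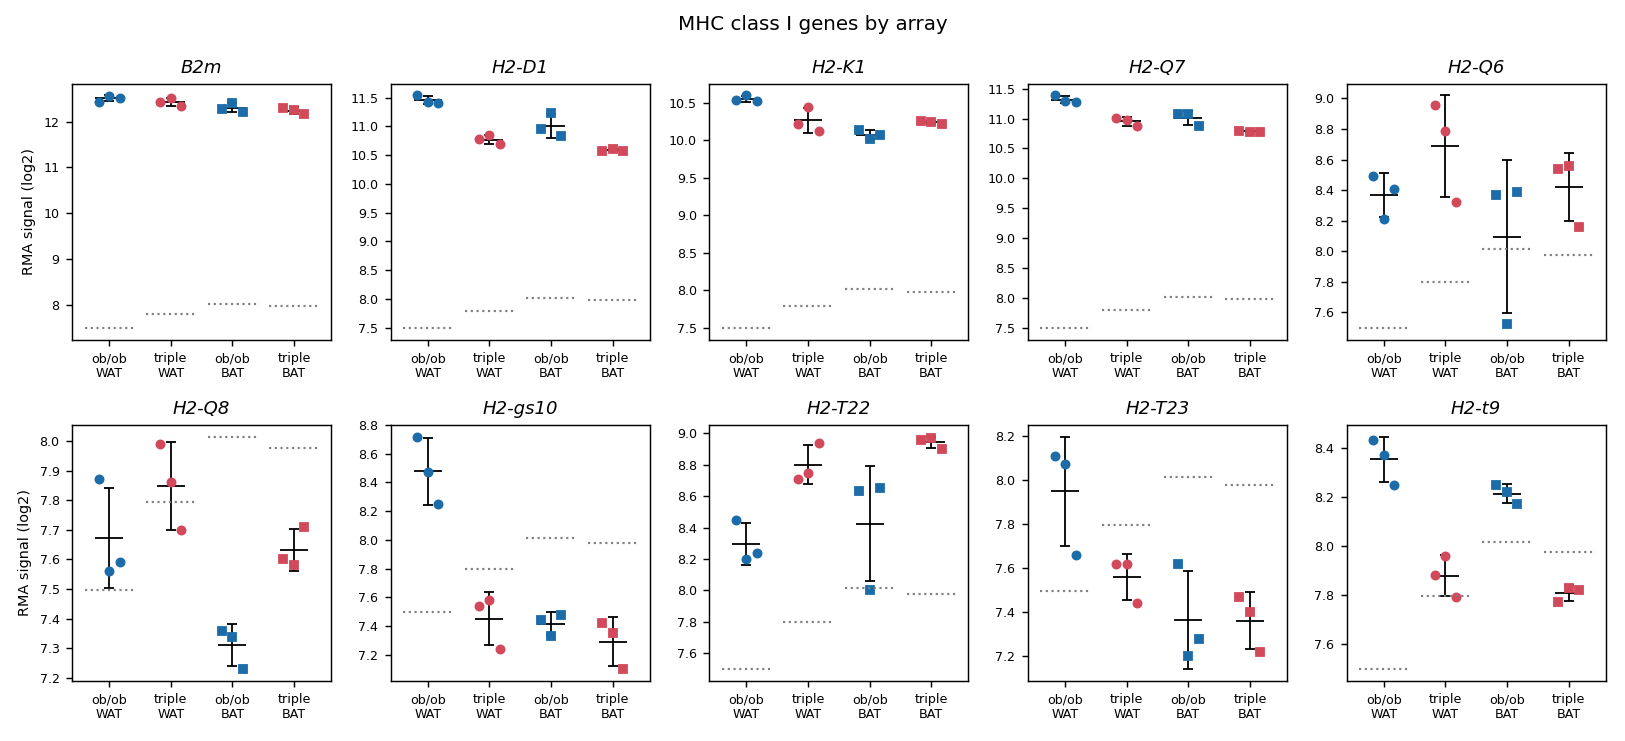
RMA signal (log2) of the 10 class I genes above the highest control in each array, with symbols, bars (mean ± SD of 3 arrays) and dotted control lines as in the plot of class II genes. H2-D1 is lower in triple mutants in both tissues, H2-gs10 stands above the control line in ob/ob WAT, and the B2m groups overlap between genotypes.

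The 20 class I genes not above the control had signals of 2.76 to 7.87. In WAT 3 of them fell and 0 rose, against 16.7% and 17.6% of all genes. In BAT 4 fell and 2 rose, against 6.97% and 10.4%. H2-M3, which presents bacterial peptides with a formyl group and is named for that role, fell by 0.82 ± 0.15 in WAT (adjusted p = 0.00124) and by 0.51 ± 0.15 in BAT (0.0377). The third that fell in WAT, beside H2-M3 and H2-T10, was H2-M2 at -0.88 ± 0.14 (0.000439). In BAT H2-Q10, in mice a secreted class I molecule of the liver, rose by 0.91 ± 0.16 (0.00386) and H2-K2 by 0.73 ± 0.18 (0.0198), while H2-M9 fell by 1.06 ± 0.29 (0.026) and H2-M10.2 by 0.43 ± 0.11 (0.0243). The BAT calls of H2-M3, H2-M10.2, H2-M9 and H2-K2 were not stable. That of H2-M3 was lost without array 1 of ob/ob BAT (adjusted p = 0.13) or array 3 (0.0846), array 2 of triple mutant BAT (0.135) or array 3 (0.111), or array 2 of triple mutant WAT (0.0501). H2-M10.2 lost its call without array 1 of ob/ob BAT (0.0573) or array 3 (0.0895) or array 2 of triple mutant BAT (0.0772) or array 3 (0.0788). H2-M9 lost it without array 1 of triple mutant BAT (0.0834), 2 (0.0506) or array 3 (0.0649), and its change was -0.65 without array 2 of ob/ob BAT. H2-K2 lost it without array 2 of ob/ob BAT (0.0589) or array 3 of triple mutant BAT (0.0745). For H2-Q1 the choice of probe set decided the call. The one used holds no transcript that RefSeq names and was called in neither tissue. The second, which holds a RefSeq transcript of H2-Q1, had -0.37 in WAT and -0.33 in BAT (adjusted p = 0.00657 and 0.0275 over all probe sets). The mean of both gave -0.25 in WAT (0.0364). These dim genes were named after their values were seen.

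Over all 30 class I genes in BAT, 6 fell and 3 rose, against the same 6.97% and 10.4% of all genes, with a median of -0.08. The median of the 10 above the control was -0.03 there. With the 6 BAT arrays fitted alone, 4 of the 30 were called, without array 2 of triple mutant BAT, 5, and without array 3 of triple mutant BAT, 4. The change differed between the tissues for 2 of the 30, H2-K1 and H2-gs10, against 13.9% of all genes. With the array number as a block this count was 5, with H2-M2 at -0.63 (adjusted p = 0.0253), H2-K2 at -0.80 (0.0421) and H2-M10.4 at 0.61 (0.0433) added.

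Between the tissues of ob/ob mice, 9 class I genes were lower in BAT and 5 higher, against the same 19.0% and 18.2% of all genes. Of the 20 not above the control, 3 were lower and 5 higher. The 10 above it were chosen by their highest group, which favours genes high in ob/ob WAT, where the control was lowest. Of these 10, 6 were lower and 0 higher. H2-gs10 differed by -1.06 ± 0.14 (adjusted p = 0.000143), H2-T23 by -0.58 ± 0.14 (0.00725), H2-K1 by -0.48 ± 0.09 (0.00144) and H2-D1 by -0.45 ± 0.10 (0.0054). H2-Q8 at -0.36 ± 0.10 (0.018) and H2-Q7 at -0.31 ± 0.08 (0.0124) were the other 2. The call of H2-Q7 was lost without array 1 of ob/ob WAT (0.0502) or array 3 of ob/ob BAT (0.0557), and so was that of H2-Q8 (0.0746 and 0.0689). Over all 30, 9 were called without array 1 or array 2 of ob/ob WAT and 8 without array 3 of ob/ob BAT. The dim H2-M10.1 had 0.25 ± 0.09 (0.0534), which was called with the array number as a block (0.04). In triple mutants 0 class I genes were lower in BAT and 1 was higher, the dim H2-Q10 at 0.69 ± 0.16 (adjusted p = 0.015), against 7.93% and 6.45% of all genes. Its call was lost without array 1 of triple mutant WAT (0.0669) or array 2 (0.0701) or array 3 of triple mutant BAT (0.0621).

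**Figure D3:**
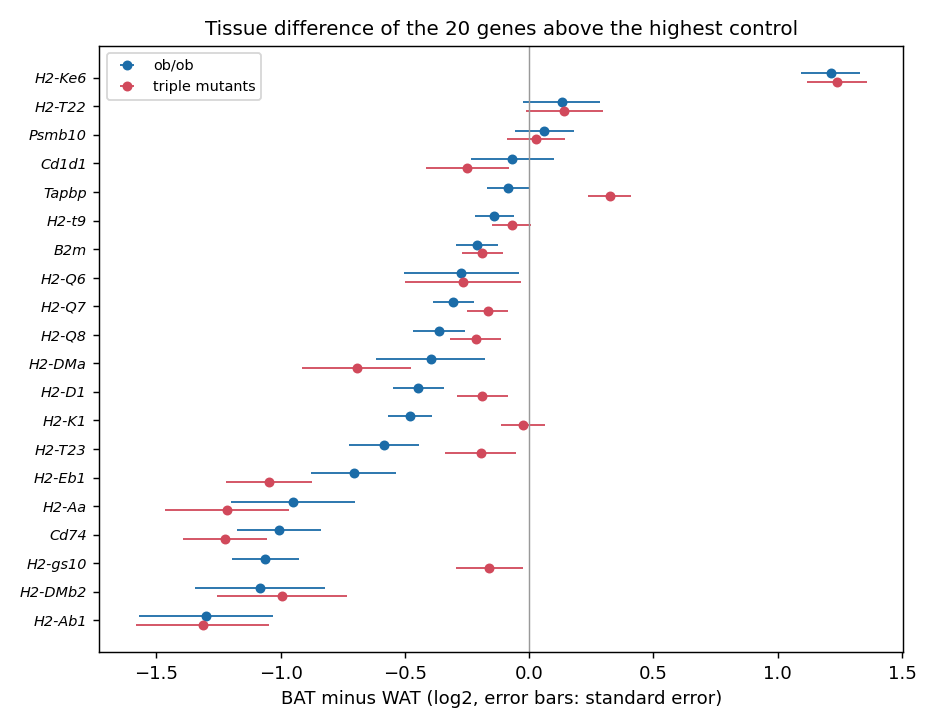
BAT minus WAT (log2, points with standard error from the fit) in ob/ob (blue) and triple mutants (red) for the 20 genes above the highest control, ordered by the ob/ob value. The class II genes lie below 0 in both genotypes, H2-gs10 is at -1.06 in ob/ob and at -0.16 in triple mutants, and H2-Ke6 lies above 1 in both.

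Of the genes that supply peptides to class I, Tapbp (tapasin) fell in both tissues. Of the 9 genes of supply, lipid presentation and costimulation, 4 fell and 1 rose in WAT, against the same 16.7% and 17.6% of all genes, and 2 fell and 1 rose in BAT, against 6.97% and 10.4%. Tapbp was at 9.67, 9.79 and 9.81 in ob/ob WAT and at 9.11, 9.13 and 8.87 in triple mutant WAT. The groups were wide apart, with a change of -0.72 ± 0.09, or 1.64-fold lower, and an adjusted p of 6.87e-05. In BAT it was at 9.73, 9.64 and 9.64 against 9.36, 9.33 and 9.40. Tapbp fell by 0.31 ± 0.09 there (adjusted p = 0.0312), again with no overlap. This BAT call was lost without array 1 of ob/ob BAT (0.0984) or array 3 (0.0605) and without arrays 1, 2 or 3 of triple mutant BAT (0.0776, 0.0903 and 0.0624).

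The change of Tapbp in WAT minus that in BAT was -0.41 ± 0.12 with an adjusted p of 0.0472. With the array number as a block the adjusted p was 0.0796, and after quantile normalization within each tissue the difference was -0.24 (0.189). The call was lost in 15 alternatives in all, 11 of which left out 1 array, that is any array but ob/ob BAT 1. In triple mutants Tapbp was higher in BAT by 0.32 ± 0.09 (0.0278), and with the block the adjusted p was 0.0592. That call was also lost without array 3 of triple mutant WAT (difference 0.24, adjusted p = 0.0662) and without arrays 1, 2 or 3 of triple mutant BAT (0.0699, 0.0616 and 0.0851).

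The 3 inducible subunits of the immunoproteasome, which trims peptides to suit class I, gave 1 call between the genotypes. Psmb10 was at 8.23, 8.13 and 8.24 in ob/ob WAT and at 8.10, 7.75 and 8.02 in triple mutant WAT. The groups did not overlap, but the difference of -0.24 ± 0.12 was not called (adjusted p = 0.142), nor was that of -0.28 ± 0.12 in BAT (0.134). Psmb8, below the control on every array, fell by 0.58 ± 0.17 in WAT (0.0196), a call lost without array 1 of ob/ob WAT (0.0856) or array 2 of triple mutant WAT (0.0734) or array 3 (0.0612). Its difference in BAT was -0.38 ± 0.17 (0.154). Psmb9 was at 7.57, 7.40 and 7.61 in ob/ob WAT, just above the control on these 3 arrays and below it on the others, and was called in no comparison.

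Tap1 and Tap2 encode the TAP pump. Tap1 was below the control on every array and was called in no comparison. Tap2 was at 7.73, 7.56 and 7.73 in ob/ob WAT, at 7.51, 7.44 and 7.53 in triple mutant WAT, at 7.87, 7.87 and 7.93 in ob/ob BAT and at 7.58, 7.76 and 7.58 in triple mutant BAT. It was above the control on the 3 arrays of ob/ob WAT and 1 array of ob/ob BAT, and the genotypes did not overlap in either tissue. Tap2 was not called either, with -0.18 ± 0.08 in WAT (adjusted p = 0.112), -0.25 ± 0.08 in BAT (0.0592) and BAT above WAT by 0.21 ± 0.08 in ob/ob (0.0586). The BAT difference was called after quantile normalization within each tissue (-0.31, 0.0302) and without array 2 of triple mutant BAT (-0.31, 0.0461). The tissue difference was called with the array number as a random block (0.0362) and after that normalization (0.27, 0.0287).

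Among 7 proteasome genes of the standard form and its activators, 4 rose and 0 fell in WAT, against 17.6% and 16.7% of all genes. In BAT 2 rose and 0 fell, against 10.4% and 6.97%. Psmb7, the standard subunit whose place Psmb10 takes, rose by 1.0 ± 0.09 in WAT (adjusted p = 9.3e-06) and by 0.30 ± 0.09 in BAT (0.0407). Psmb5, whose place Psmb8 takes, rose by 0.56 ± 0.10 in WAT (0.00117) and had a difference of 0.24 ± 0.10 in BAT (0.129).

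Genes that fold and load class I in the endoplasmic reticulum or drive its transcription were followed as a list of 12. Of these 8 fell and 0 rose in WAT, with a median of -0.63, against 16.7% and 17.6% of all genes. In BAT 4 fell and 1 rose, with a median of -0.23, against 6.97% and 10.4%. Pdia3, the protein disulfide isomerase bound to tapasin in the loading complex, fell by 1.13 ± 0.14 in WAT (adjusted p = 6.43e-05) and had a difference of -0.17 ± 0.14 in BAT (0.422). Irf2, a transcription factor that binds interferon-stimulated elements, fell by 0.76 ± 0.09 in WAT (6.38e-05) and by 0.40 ± 0.09 in BAT (0.0125).

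Of 12 genes of the interferon gamma pathway, the main inducer of MHC genes, 4 fell and 2 rose in WAT, with a median of -0.02. In BAT 1 fell and 1 rose, with a median of -0.08. The shares of all genes were 16.7% and 17.6% in WAT and 6.97% and 10.4% in BAT. Irf8, a transcription factor of macrophages and dendritic cells, fell by 1.65 ± 0.26 in WAT (adjusted p = 0.000403) and by 0.95 ± 0.26 in BAT (0.0266). Ifngr2, a chain of the interferon gamma receptor, fell by 0.99 ± 0.15 in WAT (0.000262) and had a difference of -0.45 ± 0.15 in BAT (0.0549).

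Cd1d1, which presents lipids rather than peptides to natural killer T cells, lies outside the complex, at chr3:86799756-86803259 (NCBIM37), and rose in both tissues. It was at 8.78, 9.44 and 9.48 in ob/ob WAT and at 10.19, 10.27 and 10.40 in triple mutant WAT, and at 9.32, 9.20 and 8.98 in ob/ob BAT and at 9.93, 10.04 and 10.14 in triple mutant BAT. Every triple mutant array lay above every ob/ob array of its tissue. The rise was 1.06 ± 0.17, or 2.08-fold, in WAT (adjusted p = 0.000429) and 0.88 ± 0.17, or 1.83-fold, in BAT (0.00521). Both calls held under every alternative tried. Among 8 measured class I-like genes outside the H2 complex, of 14 listed, 2 fell and 2 rose in WAT and 0 were called in BAT. Of all genes 16.7% fell and 17.6% rose in WAT, and 17.4% were called in BAT.

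Cd86 and Cd80 encode the B7 molecules that give T cells their second signal, and both lay below the highest control on every array. Cd86 was at 5.82, 6.37 and 6.37 in ob/ob WAT and at 5.40, 5.09 and 5.19 in triple mutant WAT, and at 5.44, 5.68 and 5.69 in ob/ob BAT and at 4.55, 4.78 and 4.75 in triple mutant BAT. The genotypes did not overlap in either tissue. Cd86 fell by 0.96 ± 0.15 in WAT (adjusted p = 0.000415) and by 0.91 ± 0.15 in BAT (0.00273). Cd80 fell by 0.45 ± 0.13 in WAT (0.0154), and a second probe set of it had -1.61 ± 0.17 there (adjusted p = 3.47e-05 over all probe sets). The first of these was lost without array 2 of ob/ob WAT (0.0597) or array 1 of triple mutant WAT (0.0568) or array 2 (0.0692). In BAT Cd80 had a difference of -0.35 ± 0.13 (0.0797). Between the tissues Cd86 was lower in BAT, by -0.58 ± 0.15 in ob/ob (0.0104) and by -0.53 ± 0.15 in triple mutants (0.0365), the latter call lost without any 1 of the 6 triple mutant arrays (0.0556 to 0.142). Of all genes, 37.2% were called between the tissues in ob/ob and 14.4% in triple mutants. Of the 9 genes of supply, lipid presentation and costimulation, 2 were called in triple mutants, Cd86 and Tapbp. In ob/ob Cd86 was the 1 called, with each gene read from its probe set with the highest mean. For Cd80 this choice decided the call. The probe set used holds no transcript that RefSeq names, and its ob/ob difference was -0.30 ± 0.13 (0.0787), or 0.0495 with the array number as a random block. The second probe set, which holds a RefSeq transcript of Cd80, was lower in BAT by -1.34 ± 0.17 in ob/ob (adjusted p = 0.000176 over all probe sets). Its change in WAT minus that in BAT was -1.21 ± 0.24 (0.0109). The mean of both probe sets gave -0.82 between the tissues in ob/ob (0.000465) and -0.66 for the difference of changes (0.0324).

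Of 13 other costimulation and checkpoint genes, 3 fell and 2 rose in WAT, against 16.7% and 17.6% of all genes. In BAT 1 fell and 1 rose, against 6.97% and 10.4%, and 2 of the 13 lay above the control in any group. Cd48, a leukocyte adhesion and costimulation molecule, fell by 2.74 ± 0.28 in WAT (adjusted p = 1.94e-05) and by 1.27 ± 0.28 in BAT (0.00971). Cd274, which encodes the inhibitory ligand PD-L1, rose by 1.84 ± 0.20 in WAT (3.47e-05) and by 1.25 ± 0.20 in BAT (0.00248).

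**Figure D4:**
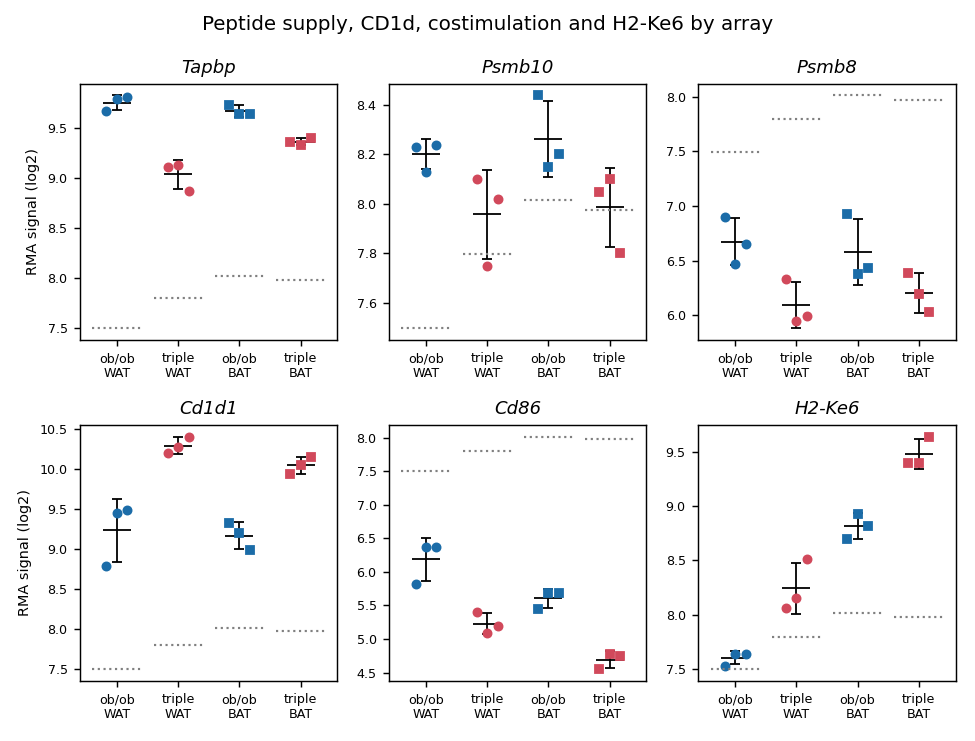
RMA signal (log2) in each array of Tapbp, 2 immunoproteasome subunits, Cd1d1, Cd86 and H2-Ke6, with symbols, bars (mean ± SD of 3 arrays) and dotted control lines as in the plot of class II genes. Tapbp and Cd86 are lower and Cd1d1 and H2-Ke6 higher in triple mutants in both tissues, and Psmb8 and Cd86 lie below the control lines.

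The 2 neighbours of the complex rose in both tissues. H2-Ke6, which encodes a hydroxysteroid and ketoacyl reductase of mitochondria, was at 7.53, 7.64 and 7.64 in ob/ob WAT and at 8.06, 8.15 and 8.51 in triple mutant WAT, and at 8.70, 8.93 and 8.82 in ob/ob BAT and at 9.40, 9.40 and 9.64 in triple mutant BAT. All 4 groups were apart, in that order. The rise was 0.64 ± 0.12 in WAT (adjusted p = 0.00148) and 0.66 ± 0.12 in BAT (0.00424), and BAT was higher than WAT by 1.21 ± 0.12 in ob/ob (3.38e-05) and by 1.24 ± 0.12 in triple mutants (9.82e-05). H2-Ke2, whose transcripts belong to Pfdn6, a prefoldin subunit, was below the control and rose by 0.38 ± 0.09 in WAT (0.00574) and by 0.48 ± 0.09 in BAT (0.00504).

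Across both tissues, 9 of the 52 genes fell in WAT and in BAT, which were 9 of the 16 that fell in WAT and of the 12 that fell in BAT. These were Cd74, H2-Eb1, H2-DMa, H2-D1, H2-M3, H2-T10, H2-t9, Tapbp and Cd86. The second probe set of H2-Q1, which was not counted, was also lower in both. Of all 21651 genes, 907 (4.19%) fell in both tissues, out of 3610 that fell in WAT and 1509 that fell in BAT. Of the 52, 4 rose in both, namely Cd1d1, H2-T22, H2-Ke6 and H2-Ke2. They were 4 of the 4 that rose in WAT and of the 6 that rose in BAT. Of all genes, 1452 (6.71%) rose in both, out of 3817 that rose in WAT and 2251 that rose in BAT. The 4 of 52 thus lie near the share of all genes. The genotype comparisons of the tissues share no arrays, but their tests share the estimate of spread from the fit of all arrays. Equal array numbers were also taken to pair WAT with BAT, so the tissues may not be independent samples. The genes called in both tissues are therefore no independent replication.

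**Figure D5:**
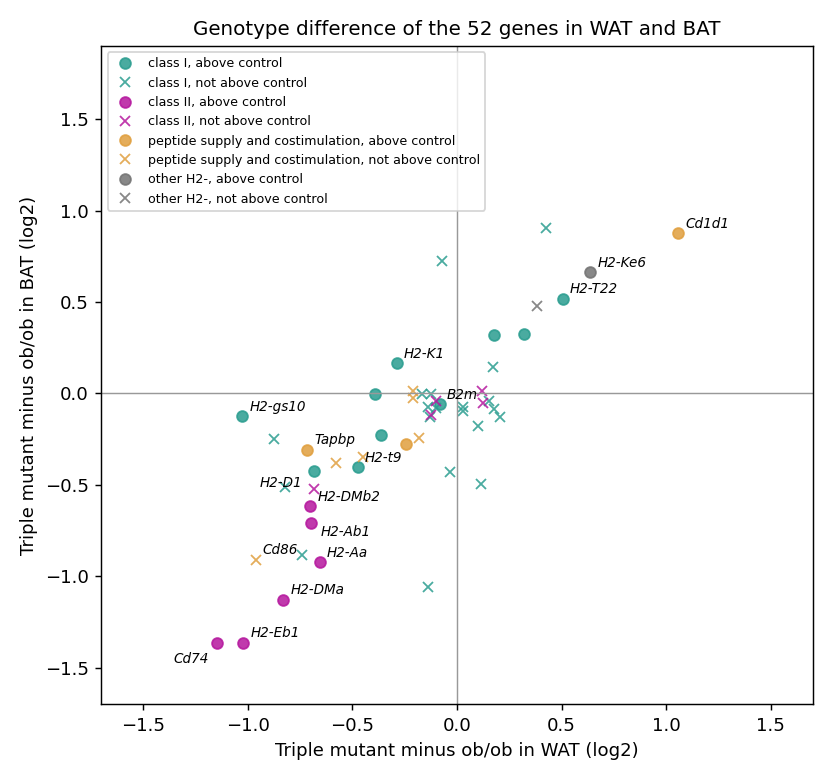
Triple mutant minus ob/ob (log2) in WAT (horizontal) and BAT (vertical) for the 52 genes, coloured by role, with filled points for genes above the highest control in their higher group and crosses for the others. Cd74 lies lowest in both tissues, Cd1d1 is highest in WAT, and H2-gs10 and H2-K1 lie off the diagonal.

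The array has 28350 main probe sets. The authors' deposited table of changed genes in WAT lists 5945 probe sets and includes 14 of these 52 genes' probe sets, 13 lower and 1 higher. The authors' deposited table for BAT lists 1164 and includes 7, of which 6 are lower and 1 is higher. Each had the sign found here, and the 1 that is higher is Cd1d1 in both. In the authors' deposited table of terms for genes lower in BAT, the MHC class II protein complex holds 4 listed genes of 12 in the background, namely Cd74, H2-Aa, H2-DMa and H2-Eb1, with a fold enrichment of 52.9 and a Benjamini-adjusted p of 0.000902. In the authors' deposited table for WAT, presentation of exogenous peptide by class II holds 6 listed genes of 14, with a fold enrichment of 5.48 and an adjusted p of 0.109. These lists were made from the same study's arrays and are no independent evidence of direction. Whether the tables of changed genes hold these genes more often than other genes was not tested.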

How the data were processed

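Total RNA of 12 samples was hybridised to Affymetrix mouse gene arrays, with groups taken from the titles. The deposited log2 values of 35556 probe sets were used as the authors gave them, and RMA and limma are named, with no version, in the submitters' processing notes. Symbols, categories and positions (mouse build NCBIM37) came from the annotation deposited by the authors. That table also has 12 array columns whose names matched no sample, and these were not used. The authors' deposited tables of changed genes hold log2 fold changes and absolute fold changes as ratios, and their term tables hold fold enrichments (ratios), p-values and numbers of genes, per the file headers.

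Of 28350 main probe sets, 25004 named 1 gene, 2 several and 3344 none. The probe set with the highest mean stood for its gene, giving 21651 genes, of which 1802 had several probe sets. Of the 52 symbols, 48 were current in RefSeq, 3 older and 1 unmatched, and 39 genes had a promoter in the RefSeq table (GRCm38.p6).

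Models of the 4 group means used all 12 arrays and limma 3.58.1 (R 4.3.3; lmFit, then eBayes; 8 residual degrees of freedom), two-sided, with Benjamini-Hochberg adjustment over the 21651 genes and calls at 0.05. Contrasts were the genotype difference (triple mutant minus ob/ob) in each tissue, the difference of these effects (WAT minus BAT), and BAT minus WAT in each genotype. The script was tested on simulated data. Figures were drawn with matplotlib 3.10.9. The members and gene lists were chosen with earlier results of these data known. Genes above the highest antigenomic control in their higher group are described one by one, and of each other list the 2 genes with the smallest p in WAT are named. The number of arrays limits the precision.

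Replicate numbers recur in the titles. Within a genotype, deviations from the group mean in WAT and BAT correlated across genes for equal numbers (r = 0.22, 0.22 and 0.16 for ob/ob numbers 1 to 3 and 0.15, 0.21 and 0.19 for those of triple mutants), so the numbers were taken to pair the tissues. Unequal numbers within a genotype had r of -0.24 to 0.07. The main model did not use the pairing, which enters only in the alternatives with a replicate block. Between genotypes r was -0.05, 0.07 and 0.11 in WAT and -0.43, -0.24 and -0.23 in BAT, so there the arrays share only a number. Unequal numbers of the genotypes reached r = 0.32 in BAT. Alternatives were 8 settings and each of the 12 arrays left out.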

Additional observations from a re-analysis of the deposited data

Results flagged for a closer look

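For 3 of the 52 genes the genotype difference itself differed between the tissues by limma's test of the interaction, against 13.9% of all genes. The WAT change minus the BAT change was -0.901 for H2-gs10 (adjusted p = 0.012), -0.454 for H2-K1 (0.0338) and -0.408 for Tapbp (0.0472). Of these, H2-gs10 alone kept its call under every alternative tried. The probe set of H2-gs10 overlaps that of H2-Q8 in position, and it lay below the highest antigenomic control in 3 of the 4 groups, so its BAT difference is no fold estimate.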

How the results depend on the processing

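No member changed sign where it was called, in any of the 8 other settings or with any 1 of the 12 arrays left out. Of the called members, 15 of 20 in WAT, 10 of 18 in BAT, 1 of 3 in the difference of effects, 13 of 23 between tissues in ob/ob and 6 of 10 in triple mutants kept their call in every alternative. With 1 array left out, the class I genes called ranged from 7 to 10 in WAT, 4 to 10 in BAT, 1 to 3 in the difference, 8 to 15 between tissues in ob/ob and 0 to 1 in triple mutants. The class II genes called ranged from 3 to 7, 3 to 6, 0 to 0, 5 to 7 and 4 to 6 in the same order, and those of supply and costimulation from 3 to 5, 2 to 4, 0 to 1, 1 to 2 and 0 to 2.

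With the 6 arrays of a comparison alone, class I calls were 4 in BAT against 9 and 0 between tissues in triple mutants against 1, and supply and costimulation calls were 2 against 1 between tissues in ob/ob and 1 against 2 in triple mutants. Under quantile normalization within each tissue, supply and costimulation calls between tissues were 3 in ob/ob and 0 in triple mutants. In the difference of effects they were 0 against 1 under that normalization, with 1 test per probe set, and with the trend and robust variance. With the mean of probe sets these were 2 in the difference and 2 between tissues in ob/ob. With a fixed replicate block, class I calls in the difference were 5 against 2, and supply and costimulation calls were 0 in the difference and 1 between tissues in triple mutants. A random replicate block gave 4 for class I in the difference and 3 for supply and costimulation between tissues in ob/ob. In the genotype comparisons, where arrays share only a number, the fixed block lost H2-Aa (adjusted p = 0.0743), H2-T22 (0.0717), H2-M10.2 (0.0677) and Tapbp (0.0896) in BAT, and called H2-T23 in WAT (0.025) and Psmb8 in BAT (0.043). The causes were not tested.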
